A study of Locusta migratoria with 12 samples.

Results

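miR-31-5p was followed in the fat body of adult female migratory locusts (Locusta migratoria) over the first days of adult life. The row was taken by its name, as the miR-31 or miR-31a row of an arthropod (5p arm or no arm given) with the highest total over the 12 libraries. That row was ame-miR-31a, the honey bee name. It is 1 of 26711 names in the table of counts, and 1 of 101 miRNAs once rows that held nearly the same counts were joined. The miRNA was selected on its measured levels, which were lower at each later age, with earlier results of these libraries known. Its levels and changes are therefore a description, given with their errors and without a test. Eclosion is the last moult, and small RNA was sequenced 0, 2, 4 and 6 days after it, from 3 libraries per age. All 4 groups share sex, species and tissue, and no treatment, strain or genotype is given for any of them. Nothing in the labels says that the 3 libraries came from separate animals. The spread between them, and every p given here, may therefore reflect technical variation alone.

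MicroRNAs are short RNAs that guide Argonaute proteins to messenger RNAs, which they pair with mainly through a stretch near their 5′ end called the seed. miR-31 belongs to the old set of microRNAs shared by insects, worms and vertebrates, and its counterpart in nematodes is named miR-72. In fly embryos, blocking miR-31 with antisense oligonucleotides disturbed segmentation, and in mammals it is studied in skin, gut and tumours. The fat body stores nutrients and, in adult females, turns to making yolk protein under juvenile hormone.

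The libraries held between 384725 and 2296421 counts of joined miRNAs, and miR-31-5p itself held 1366 to 37540, so its counting error was small. Day 0 replicate 1 stood apart from the rest. Its median correlation with the other libraries, across miRNAs, was 0.859, against 0.93 to 0.978 for the other 11. Several rows under silkworm names, and some under other insect names, held counts almost only in this library. The changes of miR-31-5p against day 0 are given with and without it, as are several other results that it moves. Muscle markers varied too. The summed level of 2 muscle miRNAs, miR-1-3p and miR-133, was 363 to 3311 CPM, that is counts relative to the size of the library, at day 0, 514 to 1155 at day 2, 75.8 to 253 at day 4 and 130 to 702 at day 6. The lower sums after day 2 came from miR-1-3p, with medians of 1769, 678, 112 and 312 CPM over the 4 ages, while those of miR-133 were 35.2, 46.5, 71.2 and 94.96 CPM. Likewise the 2 arms of miR-281, abundant in insect midgut, summed to 117 to 1532, 193 to 1116, 80.4 to 271 and 72.3 to 659 CPM. The nervous system marker miR-124 was at or near 0, with at most 16 counts in any library. The part of these markers in the levels of miR-31-5p was not tested. In bulk tissue, fewer cells of a type and less of the miRNA per cell cannot be told apart. No miRNA is known here that only fat body makes. miR-8-3p and miR-278-3p, which act in the fly fat body, summed to 612094 to 770911 CPM at day 6, against 107724 to 348268 CPM at day 0. They ran opposite ways. miR-8-3p held 609409 to 766215 CPM at day 6, against 69550 to 336213 CPM at day 0, and miR-278-3p held 2685 to 4696 CPM at day 6, against 10828 to 38174 CPM at day 0. miR-8-3p had the highest mean level over the 12 libraries.

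Reads of miR-31 were counted under many names. Of 102 rows named miR-31 or a lettered miR-31, 33 held counts, 19 of an arthropod and 14 of other animals. None of the 14 locust rows of the table is named miR-31. The row ame-miR-31a totalled 137258 counts and 3 wasp rows, nvi-miR-31a, nlo-miR-31a and ngi-miR-31a, held the same counts in every library. Just below them stood the beetle row tca-miR-31-5p, with 128974 counts, and the water flea row dpu-miR-31, with 127307. The 12 fruit fly rows totalled only 318 to 345 counts each, and the rows of other animals at most 187. The silkworm row bmo-miR-31-5p held 621 counts, of which 616 were in day 0 replicate 1. The 8 nematode miR-72 rows with counts held up to 183. Nearly all miR-31 counts thus stood under bee, wasp, beetle and water flea names, and few under fly, vertebrate and worm names.

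The other arm of the hairpin was not seen. The table holds 24 rows for the 3p arm of miR-31, of which 6 are of arthropods, and 0 of them held a count in any library. A count of 0 allows up to 3 counts in a library, which is between 0.00799% and 0.22% of the 5p counts there. This limit covers counting error only, and reads of a locust 3p arm that matched none of these names would not have been counted.

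CPM values below use trimmed-mean (TMM) factors for the library sizes. At day 0, miR-31-5p stood at 20263, 16100 and 17462 CPM in replicates 1, 2 and 3. At day 2 the libraries held 7012, 5730 and 6521 CPM. All 3 lie under the lowest library of day 0. At day 4 the values were 4397, 5166 and 3795 CPM, and at day 6 they were 3728, 2273 and 2547 CPM. No library of a later age overlapped with any library of an earlier age.

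**Figure D1:**
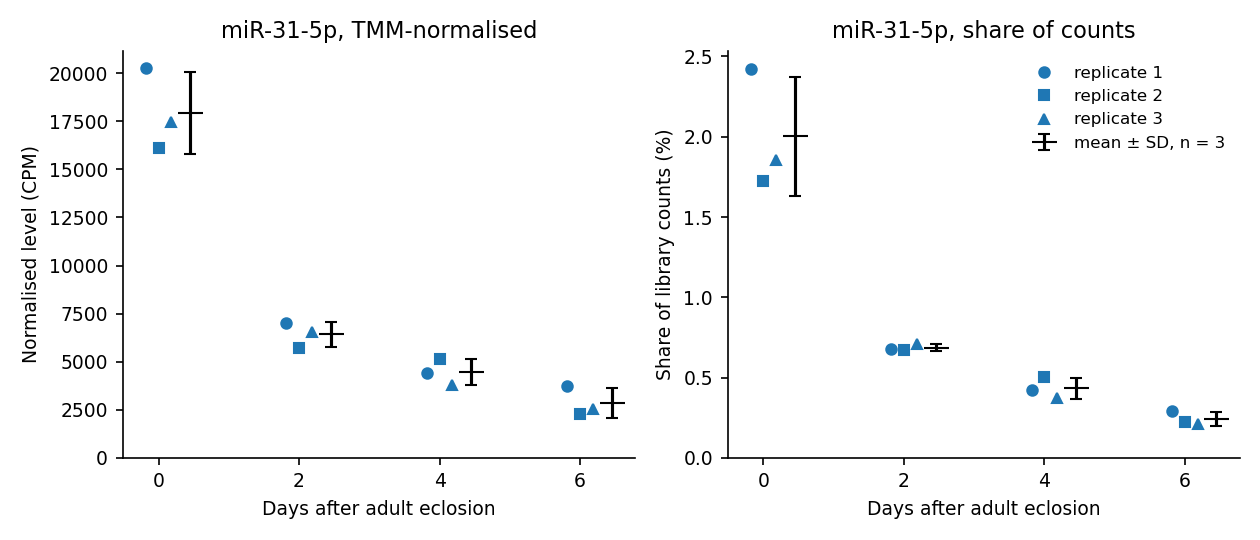
Level of miR-31-5p in each of the 12 libraries by days after adult eclosion, as normalised CPM (left) and as a percentage of the counts of the library (right). Points are libraries, bars are the mean ± SD of 3 libraries. Means were 17942 CPM at day 0, 6421 at day 2, 4453 at day 4 and 2849 at day 6, and the groups do not overlap.

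The means were 17942 ± 2123 CPM at day 0, 6421 ± 647 at day 2, 4453 ± 687 at day 4 and 2849 ± 773 at day 6 (SD, n = 3 each). The order of the levels was thus day 0, day 2, day 4 and day 6, from high to low. The lowest library of day 0 was 2.30 times the highest of day 2. Between the other neighbouring ages the gap was small beside the spread. The lowest library of day 2 was 1.11 times the highest of day 4. The highest of day 6 stood at 3728 CPM, and the lowest of day 4 was 1.02 times that. The coefficient of variation was 11.8% at day 0, 10.1% at day 2, 15.4% at day 4 and 27.1% at day 6.

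As a share of a library's counts, with no factor applied, miR-31-5p made up 2.42%, 1.73% and 1.86% at day 0. It made up 0.676%, 0.673% and 0.711% at day 2, and 0.425%, 0.501% and 0.372% at day 4. At day 6 the shares were 0.29%, 0.223% and 0.213%. The 95% Wilson interval, which covers counting error only, was 0.212% to 0.236% for day 6 replicate 2, the library with the fewest miR-31-5p counts. On this scale the gaps between neighbouring ages were wider. The lowest library of day 2 was 1.34 times the highest of day 4, and the lowest of day 4 was 1.28 times the highest of day 6.

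In the fit of all miRNAs, the level at day 2 against day 0 differed by a log2 change of -1.48 (SE 0.27, n = 3 libraries each), which is 35.8% of the day 0 level. The difference of day 4 against day 0 was -2.01 (SE 0.28), and that of day 6 against day 0 was -2.65 (SE 0.28), or 15.9% of the day 0 level. Of the 89 miRNAs tested, the libraries were lower without overlap for 14.6% at day 2, 25.8% at day 4 and 22.5% at day 6 against day 0, miR-31-5p among them. Since it was chosen for these changes, nothing is read from its place there. Leaving out day 0 replicate 1 gave -1.39, -1.92 and -2.56. In miR-31-5p itself that library was 1.26 times the lowest day 0 library.

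The steps between neighbouring ages were uneven. The first, from eclosion to day 2, came to -0.74 per day on the log2 scale. It was larger than both later steps together in this fit, at -1.48 against -1.17, but with all rows of the table unjoined it was smaller, at -1.06 against -1.12. The step of day 4 against day 2 was -0.53 (SE 0.27), or -0.26 per day. The step of day 6 against day 4 was -0.64 (SE 0.27), or -0.32 per day. Over both later steps, day 6 against day 2 differed by -1.17 (SE 0.27), 44.4% of the day 2 level.

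Libraries of the later age were lower without overlap for 14.6% of miRNAs at day 4 against day 2, 10.1% at day 6 against day 4 and 18% at day 6 against day 2. In edgeR's quasi-likelihood test, 0 of the 89 miRNAs passed a Benjamini-Hochberg adjusted p under 0.05 in any of these 3 comparisons, which is 0%. At an unadjusted p under 0.05 there were 5, 7 and 13. DESeq2 called 1, 0 and 4 miRNAs there, edgeR with total counts 0, 0 and 4, and limma-voom 0 in each.

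**Figure D2:**
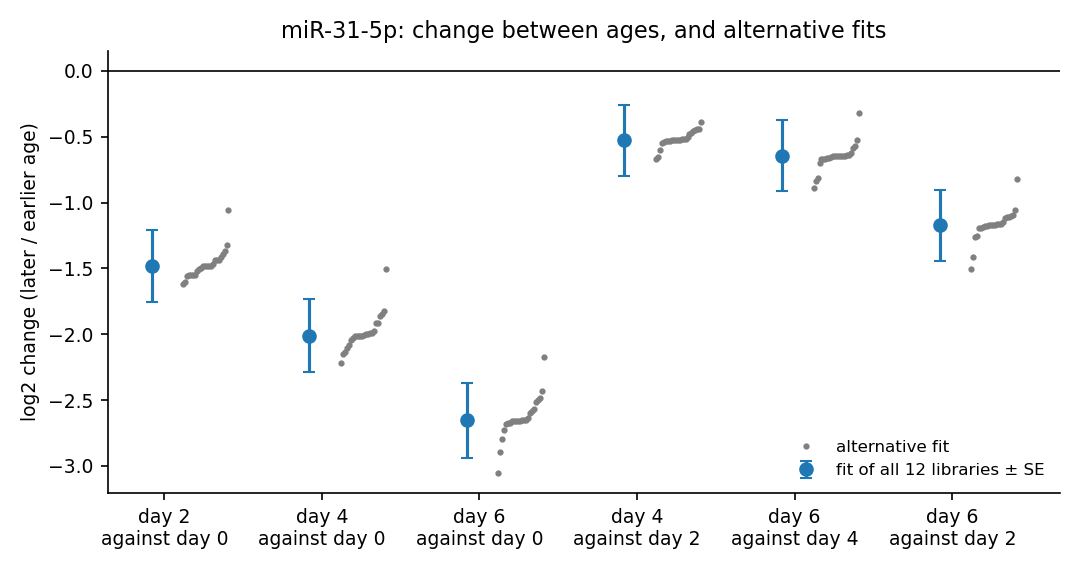
Change of miR-31-5p between ages on the log2 scale, the later age over the earlier. Blue points with bars are the fit of all 12 libraries ± SE, and grey points are fits with another scaling, tool, row or set of libraries, sorted by value. All points lie under 0, between -3.05 and -0.32.

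Libraries that did not overlap at any of the 3 consecutive steps, each later age lower, were found for 1 of the 89 miRNAs (1.12%), and this was miR-31-5p. The age means alone were lower at each step for 16 (18%). This restates the pattern on which it was selected, so nothing is read from it. In the opposite direction, miR-8-3p was higher without overlap at each step. The SD of miR-31-5p within an age on the log2 scale, pooled over the ages, was 0.24. This was the 4th lowest among the 85 miRNAs with counts in every library. miR-305-5p, let-7-5p and miR-8-5p had lower values. At day 6 alone the SD of miR-31-5p was 0.37. A small spread within ages favours ages that do not overlap, so this is not separate from the selection.

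Among the miRNAs tested, miR-31-5p ranked 12 by mean level at day 0, 19 at day 2, 20 at day 4 and 23 at day 6. Its neighbours in that order mostly overlapped with it in the range of their libraries. At day 0 the next above was miR-278-3p, at 20352 ± 15446 CPM, and the next below miR-9c-5p, at 17584 ± 5848 (SD, n = 3). miR-278-3p lay above miR-31-5p in replicate 1 only, at 38174 CPM. Its other day 0 libraries, at 12055 and 10828 CPM, lay below all those of miR-31-5p. Libraries of miR-9c-5p overlapped with those of miR-31-5p. At day 2 miR-9a-5p stood just above, at 7310 ± 391 CPM, and overlapped with it. miR-278-3p stood just below, at 5190 ± 354 CPM, and did not. At days 4 and 6 both neighbours overlapped with it: miR-317-3p at 4570 ± 369 and miR-278-3p at 4042 ± 748 CPM, then miR-34-5p at 2935 ± 1591 and miR-9a-5p at 2490 ± 1269 CPM.

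A ratio of 2 miRNAs in the same library needs no library size. let-7-5p, the timing miRNA of insect metamorphosis, gave the ratio least moved by a left-out library. Counts of miR-31-5p were 71.4% to 92.5% of those of let-7-5p at day 0, 36.5% to 46.4% at day 2, 29.0% to 43.3% at day 4 and 19.2% to 32.0% at day 6. The mean log2 ratio at day 6 minus that at day 0 was -1.83, and -1.67 to -2.04 with any library of those ages left out. Days 2 and 4 overlapped in this ratio, as did days 4 and 6. let-7-5p itself fell at day 6 against day 0, with a log2 change of -0.88 (SE 0.25) and an adjusted p of 0.0179 in edgeR. The change was -0.64 without day 0 replicate 1, and the call ended without day 6 replicate 2.

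Against miR-276-3p, known in locusts for its part in synchronous egg hatching, miR-31-5p counts were 35.9%, 10.7% and 10.8% in the day 0 libraries. They were 4.91% to 6.41% at day 2, 3.70% to 3.94% at day 4 and 2.75% to 3.43% at day 6. Every step was lower without overlap. The log2 ratio differed by -2.41 between day 6 and day 0, and by -1.83 without day 0 replicate 1. Set against miR-8-3p the ratio differed by -4.61, or -3.83 without that library. miR-8-3p itself rose at day 6 against day 0, with a log2 change of 1.65 (SE 0.43) and an adjusted p of 0.0112 in edgeR. The change was 1.23 without day 0 replicate 1.

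bantam-3p, a growth and survival miRNA in flies, and miR-14-3p, linked to cell death and fat metabolism in flies, varied most as partners at day 0. In day 0 replicate 1, miR-31-5p counts were 132% of those of bantam-3p and 616% of those of miR-14-3p. They were 18.8% and 16.4% for bantam-3p, and 59.4% and 55.6% for miR-14-3p, in day 0 replicates 2 and 3. The day 6 minus day 0 differences in log2 ratio were -2.73 to bantam-3p and -3.99 to miR-14-3p, and -1.76 and -2.85 without day 0 replicate 1. The ratio to bantam-3p differed by only -0.13 between day 4 and day 2, and those ages overlapped.

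**Figure D3:**
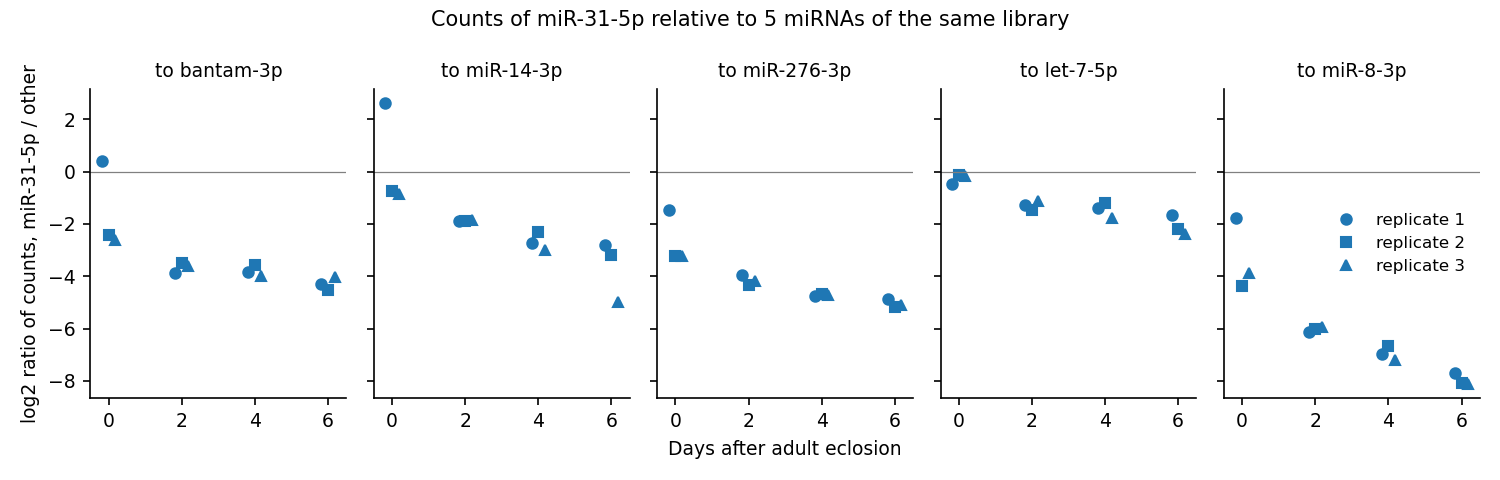
Log2 ratio of the counts of miR-31-5p to those of 5 other miRNAs of the same library, by days after adult eclosion, with 1 point per library. The ratios to miR-276-3p and miR-8-3p are lower without overlap at every step. That to miR-8-3p had to be, since miR-8-3p itself was higher without overlap at each step. Day 0 replicate 1 (circle) is high in all ratios but that to let-7-5p.

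Taking every other miRNA with a mean of at least 1000 CPM as the partner in turn, the mean ratio of miR-31-5p was lower at day 6 than at day 0 for 31 of 31. It was lower without overlap for 26. The 5 with overlap were miR-125-5p, miR-100-5p, miR-278-3p, miR-9a-5p and miR-10-5p, singled out after their values were seen. The mean ratio was lower at each of the 3 steps for 22 of the 31. These counts include day 0 replicate 1 and were not repeated without it. They restate the fall for which miR-31-5p was selected, so nothing is read from them.

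The miRNAs with the profile most like that of miR-31-5p were sought by the root mean square (RMS) difference of log2(CPM + 1), each centred on its own mean, over the 12 libraries. The nearest of 88 was miR-263a-5p, with an RMS difference of 0.29 on the log2 scale, against a median of 1.32 over all 88. It protects sensory organ cells from death in flies. Its libraries held 1866, 1530 and 2198 CPM at day 0, 499, 680 and 677 at day 2, 402, 641 and 390 at day 4 and 292, 160 and 312 at day 6. Only days 2 and 4 overlapped.

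Its relative miR-263b-5p came next, with an RMS difference of 0.37 and age means of 659, 251, 207 and 101 CPM from day 0 to day 6. miR-10-3p and miR-10-5p, the arms of a hairpin that lies in the Hox gene cluster, had RMS differences of 0.44 and 0.51. The mean level of miR-10-3p was 452, 185, 161 and 76.3 CPM over the 4 ages, and that of miR-10-5p was 2443, 915, 814 and 464. miR-278-3p, tied to energy balance in flies, had an RMS difference of 0.46. Its day 0 mean of 20352 CPM rested on 38174 CPM in replicate 1, against 12055 and 10828 in the others. miR-9a-3p, from a hairpin with a role in fly sensory organs, had an RMS difference of 0.47, and its mean level was 196, 107, 90.7 and 52.6 CPM over the ages.

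The last of the 8 were miR-184-3p, known for its role in the fly female germline, and miR-125-5p, which is made from the same transcript as let-7 in many insects. Their RMS differences were 0.54 and 0.60. The mean of miR-125-5p was 56126 CPM at day 0, 13950 at day 2, 14255 at day 4 and 13240 at day 6. The day 0 mean rested on 107821 CPM in replicate 1, beside 24418 and 36140 CPM in replicates 2 and 3, and the log2 change of day 6 against day 0 was -2.08 with that library and -1.20 without it. After day 2 the mean of miR-125-5p was nearly level, unlike that of miR-31-5p. Of these 8 miRNAs, 6 were again among the nearest 8 without day 0 replicate 1. The nearest was then miR-10-3p, with an RMS difference of 0.290, just ahead of miR-263a-5p, with 0.299. miR-9a-5p and a minor form of miR-276 (dan-miR-276b) then took the place of miR-184-3p and miR-125-5p. With total counts the 8 were the same.

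**Figure D4:**
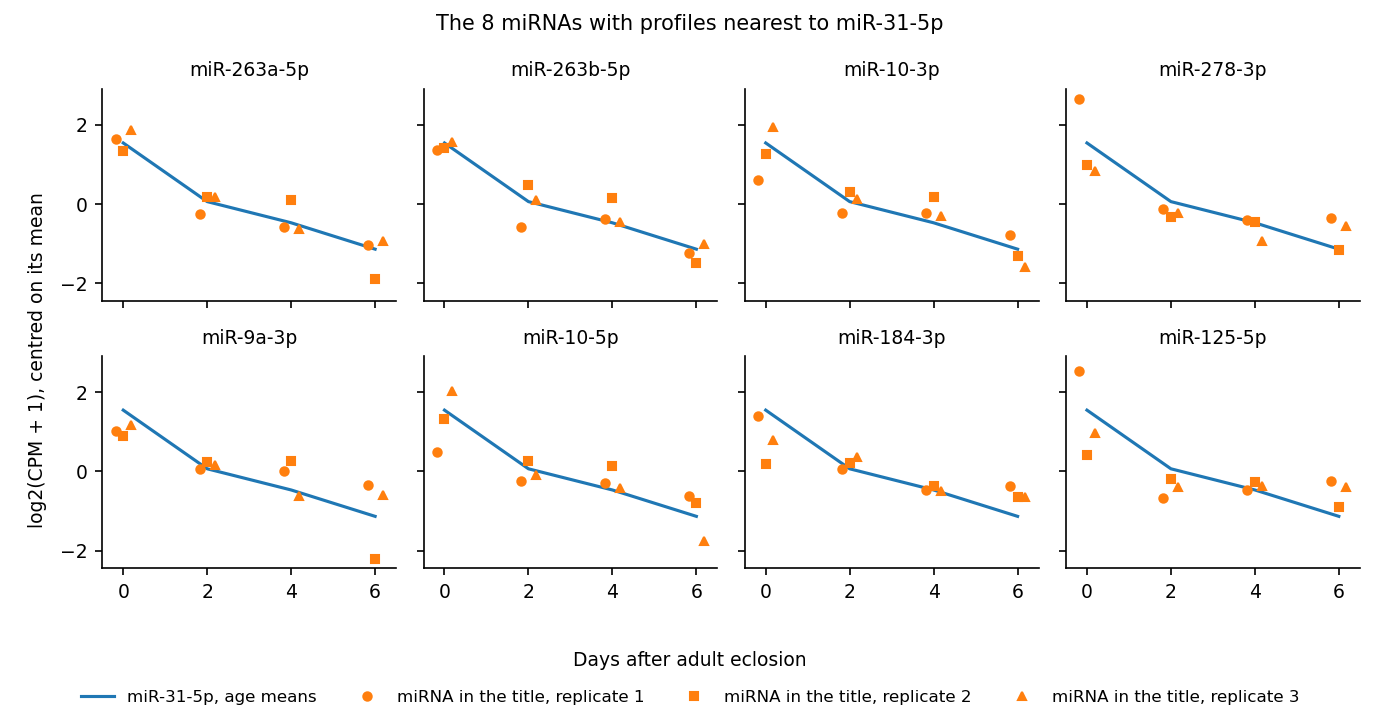
The 8 miRNAs whose log2(CPM + 1), centred on its mean, lay nearest to that of miR-31-5p over the 12 libraries. Orange points are libraries of the miRNA in the title, and the blue line joins the age means of miR-31-5p. The RMS difference is 0.29 for miR-263a-5p and 0.60 for miR-125-5p, where day 0 replicate 1 (circle) lies above the line.

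The profiles least like it were of 3 rare miRNAs without an arthropod name. They were miR-378-3p, a minor miR-1 form (aca-miR-1a-3p) and a minor miR-33 form (pma-miR-33a), with RMS differences of 2.80, 2.72 and 2.31. Their mean levels at day 6 were 56.6, 47.3 and 33.1 CPM, against 5.24, 2.21 and 4.35 CPM at day 0.

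Other old, conserved miRNAs were counted by their calls at day 6 against day 0. The list held 30 families shared by protostomes and deuterostomes, miR-31 left out, and 22 of them were tested, as 44 miRNAs with arms and minor forms. Of these, 17 fell, 8 rose and 19 were not called, with the same test and threshold as above. The rises numbered 5 when day 0 replicate 3, day 6 replicate 1 or day 6 replicate 2 was left out. With a fit of only the libraries compared, 9 fell and 1 rose. Among all 89 miRNAs tested, which include the 44 of the list, 25.8% fell and 15.7% rose. Arms and minor forms of a family were counted as separate members, so the calls are not independent of each other. The median log2 change was -0.84 for the list and 0.06 for all miRNAs. When total counts replaced the TMM factors, 19 of the list fell and 5 rose, and the median of all miRNAs was -0.32. At day 2 against day 0, 9 of the list fell and 1 rose, against 11.2% and 3.37% of all miRNAs. At day 4 against day 0, 14 fell and 6 rose, against 19.1% and 11.2% of all. edgeR called 0 members between days 2, 4 and 6, where 3 to 8 had an unadjusted p under 0.05.

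The largest called falls in the list were those of a minor form of miR-8 (cte-miR-8), miR-92a-3p and miR-193-3p, with log2 changes of -4.51, -3.51 and -3.26 (SE 1.06, 0.67 and 0.87). The main form, miR-8-3p, ran against cte-miR-8, with a log2 change of 1.65 (SE 0.43). Nor was cte-miR-8 a steady share of it. It held 957, 266 and 196 counts in the day 0 libraries, beside 32013, 783937 and 504701 counts of miR-8-3p. miR-92a-3p stood at 7.53, 15.0 and 20.8 CPM at day 6, against 343, 70.8 and 87.6 CPM at day 0. For all 3, day 0 replicate 1 was the highest library, and without it their log2 changes were -1.68, -2.45 and -1.63, each still called. The call of miR-193-3p ended without day 6 replicate 2 or 3. For miR-31-5p the value was -2.56 without day 0 replicate 1, against -2.65 with it.

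The largest called rises were those of the miR-1 form aca-miR-1a-3p, of miR-33-5p and of the miR-33 form pma-miR-33a, with log2 changes of 4.06, 2.77 and 2.68 (SE 0.93, 0.72 and 0.89). Neither aca-miR-1a-3p nor pma-miR-33a has an arthropod name. At day 0 they held only 0, 6 and 8 counts, and 0, 8 and 19 counts. Whether their reads come from the locust was not tested. The main miR-1 form in the list, miR-1-3p, ran against its minor form, with a log2 change of -2.69 (SE 0.90), a call that ended without any 1 of the day 6 libraries or without day 0 replicate 2 or 3. In flies and mammals the miR-33 hairpin sits inside the SREBP gene, a regulator of lipid synthesis. miR-33-5p held 1001, 915 and 66.6 CPM at day 6, against 73.9, 106 and 108 CPM at day 0. Day 6 replicate 3 thus lay under all day 0 libraries. The minor miR-33 form lost its call when day 0 replicate 2 or either of day 6 replicates 1 and 2 was left out. In all, 15 of the 25 calls in the list held whichever single library was left out.

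Counts under the other miR-31 names were also set against those of ame-miR-31a. The pattern was noticed after the values were seen, and was not used to choose the row. The beetle row tca-miR-31-5p held 92.8%, 92.2% and 92.6% of the ame-miR-31a counts at day 2, against 94.98%, 94.3% and 95.4% at day 0. Every day 0 library lay above all 9 later ones, of which the highest was 93.5%. The mean was 92.8% ± 0.97 at day 6, against 94.9% ± 0.56 at day 0 (SD, n = 3 each). Days 2, 4 and 6 did not separate, with means of 92.5%, 92.7% and 92.8%.

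The day 6 minus day 0 difference was -2.04 percentage points, with an exact permutation p of 0.1 (two-sided), which is the smallest that 3 against 3 libraries can give. Adjusted over the 12 such tests made, it was 0.2. The water flea row dpu-miR-31 gave -1.85 percentage points with the same p, and its counts were nearly those of the beetle row in each library. The fly row dme-miR-31a-5p held 0.146% to 0.364% of the counts at day 6, against 0.182% to 0.272% at day 0, and these overlapped. With the beetle row in place of the bee row, the log2 change of day 6 against day 0 was -2.68, against -2.65.

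**Figure D5:**
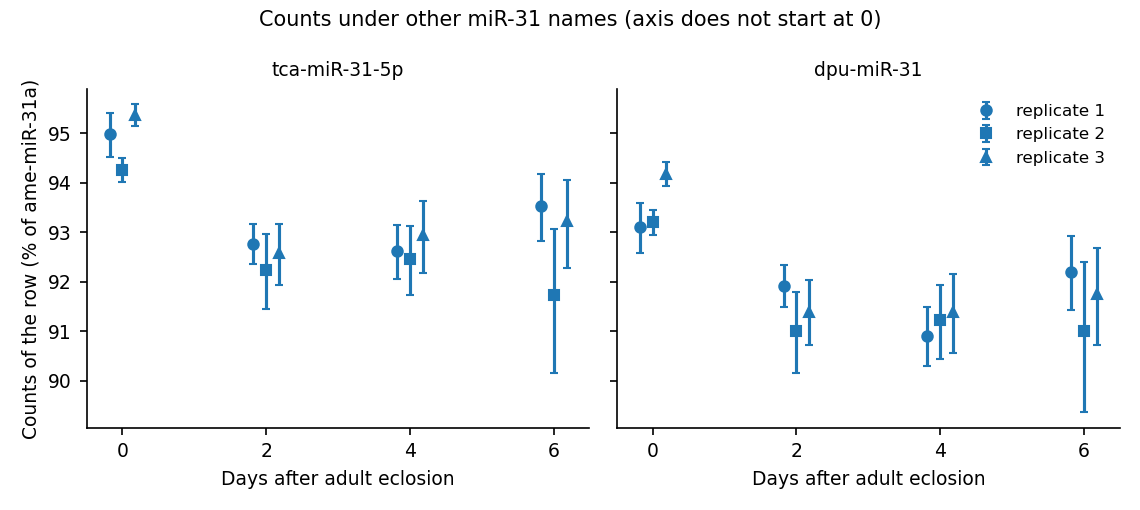
Counts under tca-miR-31-5p (left) and dpu-miR-31 (right) as a percentage of those under ame-miR-31a in the same library, by days after adult eclosion. Points are libraries with their 95% Wilson interval, and the vertical axis does not start at 0. Day 0 libraries lie between 94.3% and 95.4% for the beetle row, and the later ones between 91.7% and 93.5%.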

How the data were processed

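The authors deposited raw counts per mature miRNA name for 12 libraries, with 26711 names of 115 species prefixes. TRIzol extraction and Illumina library preparation are named, per the labels' protocols. The sources used here do not give the aligner, the mismatches allowed or the miRNA release. No sequences came with the counts, and none are printed. Ages and replicate numbers come from sample titles, and columns were matched through the descriptions (0 columns of other samples). The members, lists and tests were chosen with earlier results of these data known.

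Reads appeared to be counted under each matching name, so rows with at least 120 counts (1513) were joined where rows of the same number agreed within 25% plus 5 counts in every library, or rows of other numbers within 5% plus 3. Profiles that were a constant share (factor 1.5 or 2.5 counting SDs, 1 library allowed outside) of a larger one of the same number, arm and letter were then joined, leaving 101 miRNAs, 81 with an arthropod name. Each has the counts of its most abundant row. The planned fit had taken each row as a miRNA of its own. Paralogues that share reads are uncertain.

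edgeR 4.0.16 (R 4.3.3, limma 3.58.1) used TMM factors, filterByExpr (minimum count 10) and glmQLFit with age as a factor on all libraries, which kept 89 miRNAs. The SE is the log2 change divided by the square root of F. The fit was tested on simulated data. Named miRNAs are the miR-31 rows, the 8 nearest and 3 farthest profiles, 5 miRNAs for ratios, neighbours in rank, and the 3 largest called falls and rises of the conserved list. Alternatives were DESeq2 1.42.0, limma-voom, no filter, total counts, RLE factors, the replicate block, each library left out, a fit of only the libraries compared, library sizes without miR-8-3p, all rows, another miR-31 row and, added after seeing the data, the row dme-miR-31a-5p and arthropod names only. No pair of libraries of an age agreed within sampling noise. Python 3.11.15, pandas 2.3.3, NumPy 2.4.6, SciPy 1.17.1 and matplotlib 3.10.9 were used.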

Additional observations from a re-analysis of the deposited data

Results flagged for a closer look

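The silkworm row bmo-miR-31-5p, which no comparison used, held 616 counts in day 0 replicate 1. It held 1 and 2 counts in the other day 0 libraries, 0 in every library of days 2 and 6, and 2, 0 and 0 at day 4, so the signal is above the 3 counts that a count of 0 allows in that library alone. The 616 counts are 6.60% of the ame-miR-31a counts of that library. Other rows under silkworm names were also confined to day 0 replicate 1. There miR-3338-3p held 547 counts, miR-2766-3p 399 and bmo-miR-306a-5p 359, with 0 in every other library. Some rows under other insect names did so too. In that library hme-miR-2763 held 176 counts, with 0 in every other. The beetle row tca-miR-3477-5p held 159 there and at most 3 in any other. Not all silkworm names did so. The row of miR-9c-5p, also a silkworm name, held 5147 counts there and 52798 in day 0 replicate 2. The origin of these reads, and their part in the other values of the library, were not tested.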

How the results depend on the processing

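In the 144 alternative fits of miR-31-5p (24 settings, 6 comparisons), all log2 changes were negative, and 137 lay within the pooled within-age SD of 0.24 of the values given. Many of these fits left out a library of neither age compared, which could move the change little. Day 2 against day 0, for example, was -1.48 without day 6 replicate 1 and in the main fit. With total counts, day 6 against day 0 was -3.05 and day 6 against day 2 was -1.50. With all rows of the table, where reads count again under each name, the changes against day 0 were -1.06 at day 2, -1.51 at day 4 and -2.18 at day 6. The fly row dme-miR-31a-5p gave -0.82 for day 6 against day 2 and -0.32 for day 6 against day 4. It held 2 to 18 counts in the day 6 libraries. The cause of the other shifts was not tested.

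Leaving out each library in turn gave -1.55 to -1.39 for day 2 against day 0, -2.14 to -1.82 for day 4 and -2.90 to -2.50 for day 6 against day 0. It gave -0.65 to -0.39 for day 4 against day 2, -0.89 to -0.52 for day 6 against day 4 and -1.41 to -1.06 for day 6 against day 2. The log2 ratio at day 6 minus day 0 lay at -3.27 to -1.76 for bantam-3p, -4.59 to -2.85 for miR-14-3p, -2.71 to -1.83 for miR-276-3p, -2.04 to -1.67 for let-7-5p and -5.13 to -3.83 for miR-8-3p. In the conserved list, 12 to 17 members were lower and 5 to 8 higher; the lowest, 5, came when day 0 replicate 3, day 6 replicate 1 or day 6 replicate 2 was left out. There were 5 higher with total counts, limma-voom or the replicate block, and 9 lower and 1 higher with only the libraries compared, a fit with fewer samples.

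With the replicate block, miR-31-5p gave -1.48 at day 2, -1.998 at day 4 and -2.67 at day 6 against day 0. Same-numbered libraries did not deviate together (7 of 18 pairs over 0.1, from -0.7 to 0.273), so the numbers were not taken as pairs. The numbers are those of the titles. In the column names, replicate 1 of day 0 carries another number than replicate 1 of the later ages. The 3p arm had no counts, so its alternatives could not be run.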
